A study of Mus musculus with 6 samples.

Results

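The p53 gene Trp53 and 9 genes known as p53 targets or as sestrins were followed in RAW 264.7 cells with and without CPN. The members were taken by gene symbol as a fixed list of 10 among 23282 gene entries. Of these, 9 had counts and passed the filter on low counts, as did 11092 of all entries, and Sesn3 had no count in any library. RAW 264.7 is a mouse macrophage line, transformed by the Abelson leukaemia virus, that can be driven to form bone-resorbing osteoclasts. All 6 samples were taken at day 5 of osteoclast differentiation. Of them, 3 were labelled control and 3 CPN, and the series title names a 60 kDa chaperonin, a protein-folding machine. The labels used here gave neither the source, dose and timing of CPN nor the agent that drove differentiation, and did not say that the samples were separate cultures. The p-values therefore refer to the spread among these 6 samples alone, part or all of which may be technical.

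The transcription factor p53 is held low by MDM2, a ubiquitin ligase that marks it for degradation, and p53 activity is set largely at the level of the protein. When DNA damage or other stress frees p53, it switches on genes that stop the cell cycle, limit growth or favour cell death, and it also switches on Mdm2, which closes a feedback loop. Sestrins are stress-induced proteins that bind the GATOR2 complex and restrain the growth kinase complex TORC1. Sesn1 is a p53 and FoxO target, Sesn2 is also induced by the stress factors ATF4 and NRF2, and Sesn3 is known as a FoxO target.

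Library totals lay between 7957228 and 9713938 counts, of which Rn45s, the ribosomal RNA precursor, took 9.04% to 16.5%. Control 3 and CPN 1 stood apart as the least sparse libraries: among 707 genes with a mean of 6 to 12 counts, 23.8% and 14.0% of values were 0 there, against 36.9% to 41.2% in the other 4. By a chi-square of the counts, control 2 lay farthest from the other controls (44.4 and 36.1 per degree of freedom, against 16.1 for control 1 with control 3), and CPN 1 from the other CPN libraries (42.6 and 45.8, against 21.3). Results that rest on these libraries are given below without control 3 and CPN 1, and, as an alternative added after seeing the data, without control 2 and CPN 1. Levels are given as CPM, a gene's counts relative to the size of its library, scaled between libraries by TMM. Macrophage markers summed to 2065 to 2667 CPM in control and 2797 to 3088 CPM in CPN, with all 8 above 0. Adgre1, Itgam, Cd14 and Fcgr1 were higher in CPN and Spi1 was lower (edgeR adjusted p under 0.05). Lyz2, Cd68 and Csf1r did not pass. The 7 osteoclast markers summed to 3847 to 3984 CPM in control and 862 to 1364 CPM in CPN. Each of the 7 was lower in CPN, with no overlap between groups (edgeR adjusted p of 0.0163 or less). Granulocyte markers summed to 17.99 to 34.6 CPM in CPN against at most 0.117 CPM in control. Nearly all of this was S100a8, at 17.9 to 34.6 CPM in CPN, while S100a9 and Ltf had 1 count each and Mpo 6 counts in all libraries together, and Elane and Camp were at 0. Stromal markers summed to 12.5 to 26.5 CPM against 0.589 to 6.35 CPM. Dcn had 7.73 to 12.2 CPM in CPN and 0 in control, and Lum was found in CPN 1 and CPN 2 alone. Pdgfra and Col1a2 had 2 counts each, in control only, and Col1a1, Col3a1 and Acta2 overlapped between groups. Lymphocyte and epithelial markers stayed at or below 3.01 CPM, with Ms4a1, Cd8a, Krt14, Krt5 and Krt8 at 0. The part of these markers in the results below was not tested. In such bulk samples, fewer cells of a type and less RNA per cell cannot be told apart.

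Mdm2 rose and Sesn1 fell in CPN cells, and the other 7 tested members, Trp53 among them, did not pass. That is 1 higher and 1 lower of 9, where 14.0% of all tested genes passed, with 7.62% of all tested genes higher and 6.39% lower (edgeR's quasi-likelihood test, Benjamini-Hochberg adjusted p under 0.05). Each of these counts is 1 gene, so neither share says much about the list. The members' median log2 fold change was 0.27, against -0.0079 for all tested genes. The 2 groups had no overlap in 3 of the 9, Mdm2, Ccng1 and Sesn1, where 32.6% of all tested genes were so separated.

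Upstream stretches are shown for the pair of genes that passed and for Cdkn1a, so that 1 gene that rose, 1 that fell and 1 that did not pass can be compared. For Sesn1 and Cdkn1a, which have more than 1 listed start, the stretch that holds a half-site is shown. Which start the cells used was not tested. None of these stretches was chosen as a known p53-bound site. Each is the 250 bases before a RefSeq start (GRCm38.p6, the sequence of mm10), 5′ to 3′ on the gene's strand. Capitals mark matches to the p53 half-site consensus and, in Mdm2, also the FOXO site GTAAACA.
Sesn1, second start, chr10:41887189-41887438, plus strand: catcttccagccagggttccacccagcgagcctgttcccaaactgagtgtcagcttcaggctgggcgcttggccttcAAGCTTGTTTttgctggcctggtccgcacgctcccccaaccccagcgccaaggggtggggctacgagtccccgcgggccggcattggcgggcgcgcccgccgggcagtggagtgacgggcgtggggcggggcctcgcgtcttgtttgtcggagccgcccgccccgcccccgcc
Mdm2, chr10:117710759-117711008, minus strand: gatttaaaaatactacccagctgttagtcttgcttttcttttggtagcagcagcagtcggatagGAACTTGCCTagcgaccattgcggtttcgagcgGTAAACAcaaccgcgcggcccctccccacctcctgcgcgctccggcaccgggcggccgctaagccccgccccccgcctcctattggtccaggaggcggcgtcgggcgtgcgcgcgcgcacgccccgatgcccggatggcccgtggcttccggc
Cdkn1a, first start, chr17:29090729-29090978, plus strand: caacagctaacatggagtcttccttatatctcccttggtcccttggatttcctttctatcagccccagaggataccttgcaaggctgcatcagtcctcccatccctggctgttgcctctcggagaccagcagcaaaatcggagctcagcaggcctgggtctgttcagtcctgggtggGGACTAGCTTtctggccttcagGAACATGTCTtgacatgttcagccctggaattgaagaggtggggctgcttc

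A half-site on either strand was found in 5 of the 10 windows listed for 8 members (Trp53, Cdkn1a, Mdm2, Ccng1 and Sesn1), and in 7.13% of 32851 windows of all genes. In Cdkn1a the pair of exact half-site matches lies 12 bases apart. The bases directly after the second match, tgacatgttc, miss the consensus at their first base only and were not counted. Which of these stretches form a full p53 site was not tested. Half-sites at most 13 bases apart, the spacing usually allowed for a full p53 site, occurred in 21 of the 32851 windows (0.0639%). This first start of Cdkn1a lies 2790 bases before the gene's second start. The rising gene Mdm2 had 1 half-site, and the falling gene Sesn1 had 1 before its second start. The windows before the first start of Sesn1 and the second start of Cdkn1a held none of the motifs searched. GTAAACA was found in 1 member window, that of Mdm2, and in 3.17% of all windows. The antioxidant response element core TGACNNNGC was found before Sesn2 and Trp53 and in 10.2% of all windows, and the amino acid response element TGATGNAAN in none of the members' windows and 3.44% of all. None of these motifs share bases with another in the members' windows. All motifs were searched on both strands. A match describes letters in these windows and not binding.

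Trp53, which encodes p53 (chromosome 11, 69580348 to 69591873), did not pass. It had 130.4, 89.1 and 75.6 CPM in control 1 to 3 and 66.1, 74.1 and 141.8 CPM in CPN 1 to 3. The groups overlapped, and the spread within each was wide, with control 1 and CPN 3 high. The mean was 98.4 ± 28.5 CPM in control and 94.0 ± 41.6 CPM in CPN (SD, n = 3). The log2 fold change was -0.07, with a 95% interval of -0.70 to 0.57 (edgeR adjusted p = 0.923). Changes of Trp53 mRNA within this interval cannot be told from none in these samples.

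Mdm2 (chromosome 10, 117688875 to 117710758) had 128.8, 159.3 and 117.1 CPM in control 1 to 3 and 207.4, 274.7 and 272.4 CPM in CPN 1 to 3. Every CPN library lay above every control library. It rose 1.86-fold, from 135 ± 21.8 to 251 ± 38.2 CPM (SD, n = 3). The log2 fold change was 0.90 ± 0.189 (SE), with an edgeR adjusted p of 0.00669. The call ended without control 3 (log2 fold change 0.80, adjusted p = 0.0523) and without both control 3 and CPN 1 (0.93, adjusted p = 0.0609). It held in 14 of 16 alternatives, over which the adjusted p ran from 0.000126 to 0.0609. Daxx, which encodes a protein that binds MDM2 and p53, also rose, and Mdm4, the MDM2 relative that inhibits p53, did not pass, at 81.8 ± 13.4 CPM in control against 96.2 ± 11.6 CPM (adjusted p = 0.527).

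Cdkn1a, encoding the cyclin-dependent kinase inhibitor p21 (chromosome 17, 29090979 to 29100722), had 229.6, 314.9 and 214.2 CPM in control 1 to 3 and 445.2, 356.9 and 296.8 CPM in CPN 1 to 3. Control 2 lay above CPN 3, so the groups overlapped. The mean was 253 ± 54.3 CPM in control and 366 ± 74.7 CPM in CPN, with a log2 fold change of 0.53 ± 0.202 (SE) and a 95% interval of 0.10 to 0.97 before correction. It did not pass (edgeR adjusted p = 0.104). Without control 2 it passed, at a log2 fold change of 0.74 (adjusted p = 0.0108), and it also passed without both control 2 and CPN 1 (0.57, adjusted p = 0.0325) and with no filter on low counts (adjusted p = 0.0471). Over all 16 alternatives the adjusted p ran from 0.0108 to 0.659, the highest without both control 3 and CPN 1. An entry on the opposite strand shares 273 exonic bases with Cdkn1a in the GENCODE M21 annotation, so with the use of strand not stated, reads there cannot be assigned.

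Ccng1, encoding cyclin G1, which recruits a phosphatase to MDM2 (chromosome 11, 40748552 to 40755309), varied little within groups. It had 109.0, 96.2 and 113.8 CPM in control 1 to 3 and 139.0, 159.0 and 161.5 CPM in CPN 1 to 3. All CPN values lay above all control values, with means of 106 ± 9.12 and 153 ± 12.4 CPM. The log2 fold change of 0.53 ± 0.176 (SE, 95% interval 0.15 to 0.91) did not pass at an edgeR adjusted p of 0.067. DESeq2 passed it at an adjusted p of 0.0355, and the 16 alternatives ran from that value to 0.184. Mdm2, Cdkn1a and Ccng1 thus all had positive fitted values, of which the first passed, and whether their changes differ was not tested.

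**Figure D1:**
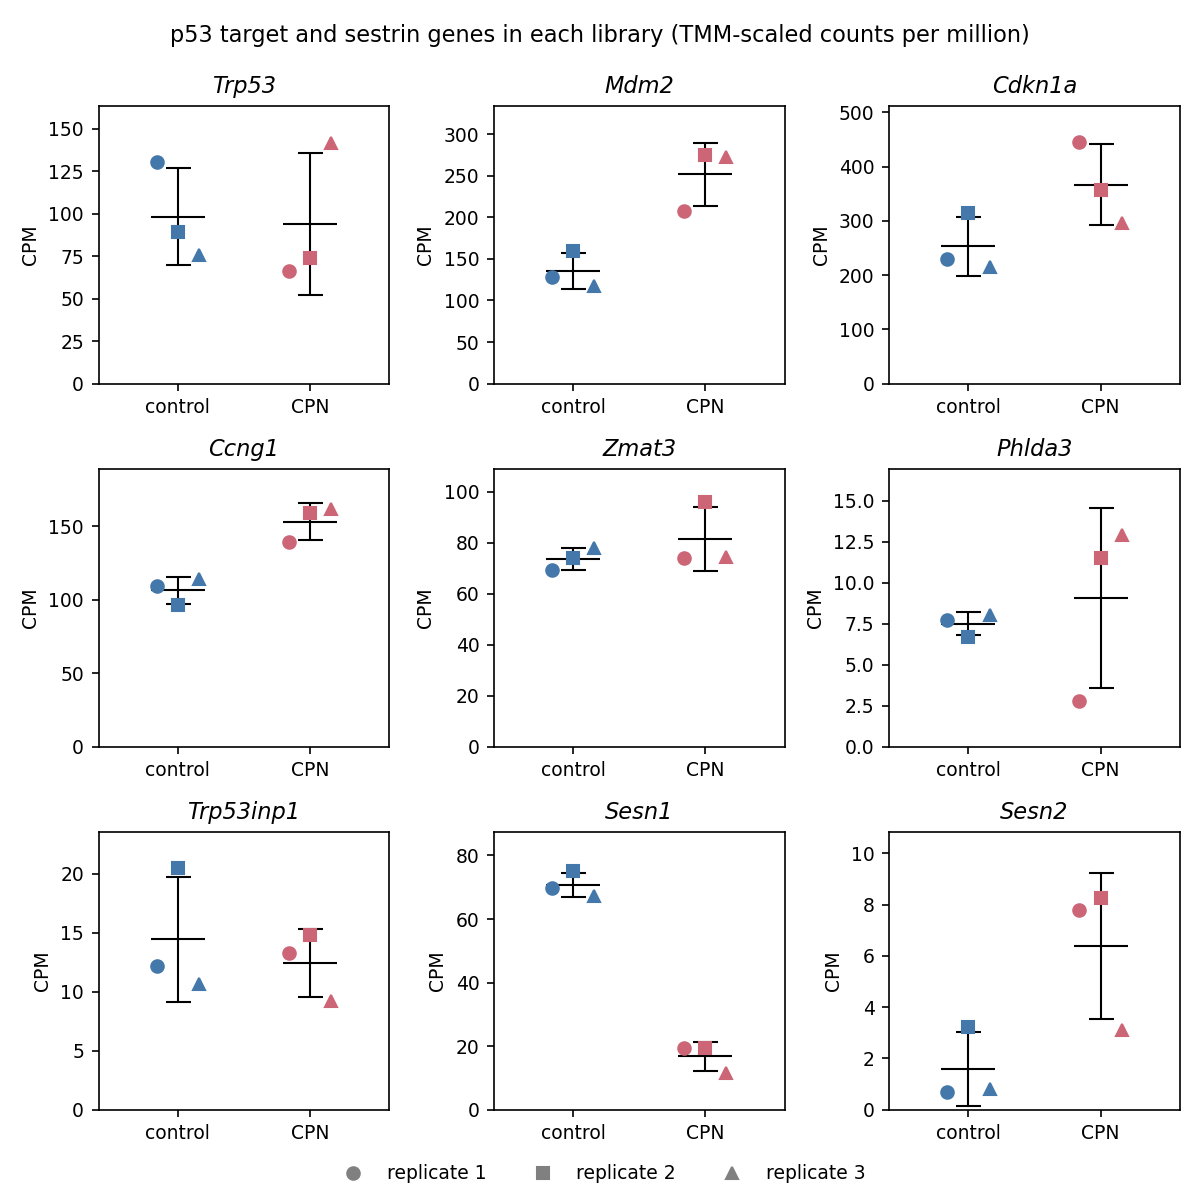
TMM-scaled CPM (vertical axes, each from 0) of the 9 tested genes in the 3 control and 3 CPN libraries; symbols are replicates, and the horizontal line with bars is the mean ± SD of 3. Sesn1 sits at 67.3 to 75.0 CPM in control and 11.5 to 19.5 CPM in CPN, Mdm2 and Ccng1 are separated in the other direction, and the remaining 6 genes overlap between groups.

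The other target genes showed no call. Zmat3, which encodes a zinc finger RNA-binding protein (chromosome 3, 32334792 to 32365665), had 69.1, 74.0 and 77.8 CPM in control 1 to 3 and 74.0, 96.0 and 74.3 CPM in CPN 1 to 3. Apart from CPN 2, these values lay within a narrow band, and the 95% interval of the log2 fold change was -0.29 to 0.58 (edgeR adjusted p = 0.712). Phlda3, encoding a membrane-binding protein that restrains AKT (chromosome 1, 135766085 to 135769134), had 7.75, 6.71 and 8.06 CPM in control 1 to 3 and 2.76, 11.5 and 12.9 CPM in CPN 1 to 3. CPN 1 lay below every control library and CPN 2 and 3 lay above them, on 23, 88 and 104 counts. Its log2 fold change was 0.27 with a 95% interval of -1.01 to 1.55 (adjusted p = 0.832), and it turned to -0.074 without CPN 3 and -0.037 with limma-voom. Trp53inp1, which encodes a p53-induced protein that acts in cell death and autophagy (chromosome 4, 11156441 to 11174379), had 12.2, 20.5 and 10.6 CPM in control 1 to 3 and 13.3, 14.8 and 9.18 CPM in CPN 1 to 3. Its groups overlapped, with a log2 fold change of -0.21 and a 95% interval of -1.11 to 0.68 (adjusted p = 0.807).

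Sesn1 and Sesn2 had the largest fitted differences among the members, of opposite sign, but only Sesn1 passed. The value of Sesn2 rests on low counts, as given below. Sesn1 (chromosome 10, 41810574 to 41908436) had 69.8, 75.0 and 67.3 CPM in control 1 to 3 and 19.4, 19.5 and 11.5 CPM in CPN 1 to 3. The control libraries were close together, with an SD of 5.53% of their mean, and every CPN library lay far below them. It fell by 2.07 ± 0.263 on the log2 scale (SE, edgeR adjusted p = 0.000211), with a 95% interval of -2.64 to -1.50. By fitted fold change it ranked 228 from the lowest of 11092 genes. The call held in all 16 alternatives, at log2 fold changes of -2.22 to -1.86 and adjusted p up to 0.0118, the highest without both control 3 and CPN 1.

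Sesn2 (chromosome 4, 132492804 to 132510456) was low, on 7, 27 and 7 counts in control 1 to 3 against 65, 63 and 25 counts in CPN 1 to 3. It passed the filter on low counts only through the CPN libraries. These counts are 0.687, 3.23 and 0.818 CPM in control and 7.80, 8.25 and 3.10 CPM in CPN. Control 2 lay just above CPN 3, and the other 2 control libraries lay far below every CPN library. The fitted log2 fold change was 2.01 ± 0.918 (SE), or 4.03-fold, with a 95% interval of 0.03 to 3.998, and it did not pass (edgeR adjusted p = 0.183). The adjusted p over the 15 alternatives that kept the gene ran from 0.0524, without control 2, where the log2 fold change was 3.08, to 0.63. Without both control 2 and CPN 1 the log2 fold change was 2.90 (adjusted p = 0.145). Sesn3 (chromosome 9, 14276301 to 14326134) had 0 counts in all 6 libraries, and a count of 0 allows up to 3 counts, or 0.294 to 0.393 CPM in a library. That limit covers counting error only, and as shown above low counts here hold more zeros in some libraries than in others.

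**Figure D2:**
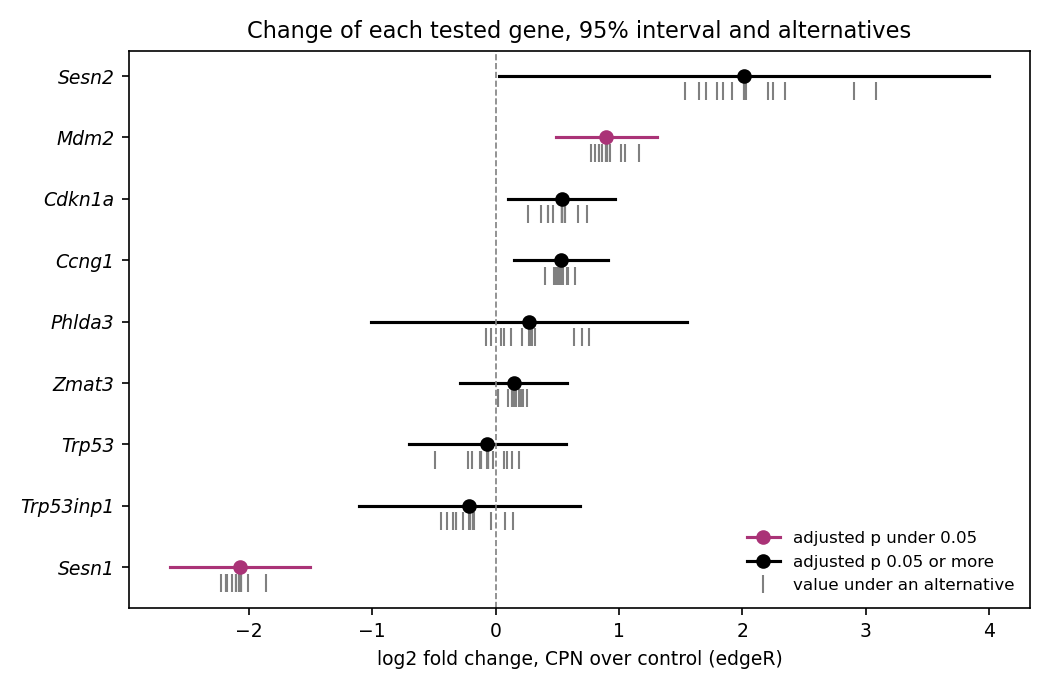
Log2 fold change of CPN over control (horizontal axis) for the 9 tested genes, with the 95% interval of edgeR's fit as a line and the value under each alternative as a grey tick. Sesn1 lies at -2.07 and Mdm2 at 0.90, the 2 genes that passed, and the interval of Sesn2 runs from 0.03 to 3.998.

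Ratios of counts inside 1 library do not depend on how libraries are scaled. Counts of Mdm2 per count of Trp53 were 0.988, 1.79 and 1.55 in the control libraries, in order of replicate, against 3.14, 3.70 and 1.92 in the CPN libraries, so all CPN ratios were higher, CPN 3 by little. Counts of Sesn1 per count of Zmat3 were 1.01, 1.01 and 0.865 in control and 0.263, 0.203 and 0.155 in CPN. Counts of Sesn2 per count of Sesn1 were 0.00983, 0.0431 and 0.0122 in control and 0.401, 0.423 and 0.269 in CPN. The groups were far apart in this ratio, whose denominator Sesn1 was lower in every CPN library, while Sesn2 alone overlapped. The separation is therefore no added evidence on Sesn2. Mdm2 per Cdkn1a was 0.561, 0.506 and 0.547 in control and 0.466, 0.770 and 0.918 in CPN, which overlapped. These ratios were picked after the levels were seen and are given with no test.

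**Figure D3:**
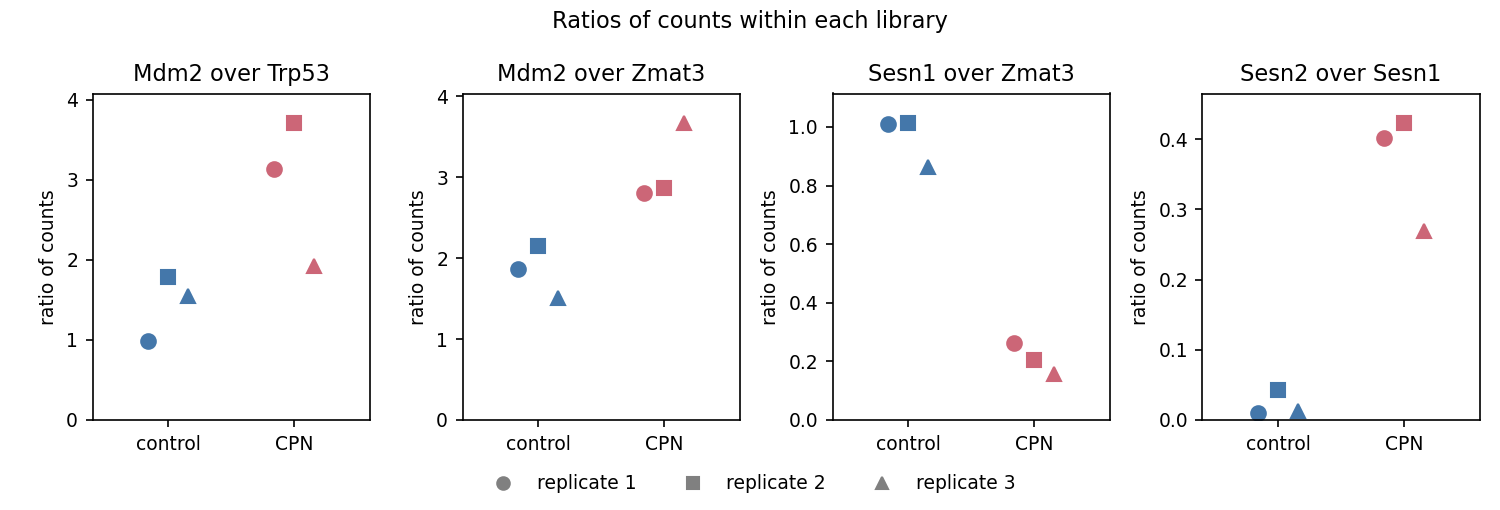
Ratios of raw counts of 2 genes within each library (vertical axes, from 0), with 1 point per library. Mdm2 over Trp53, Mdm2 over Zmat3 and Sesn2 over Sesn1 are higher in all CPN libraries, with CPN 3 at 1.92 close to control 2 at 1.79 in the first, and Sesn1 over Zmat3 is lower.

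Of 26 tested regulators, genes that act on p53, 1 rose and none fell by edgeR, DESeq2 or limma-voom. By edgeR that is 3.85% and 0%, against 7.62% and 6.39% of all tested genes. By each tool 2 regulators were lower at an unadjusted p under 0.05. The median log2 fold change of the list was -0.06. The count of higher regulators was 2 without control 2 and 0 without control 3 or CPN 1. Without both control 2 and CPN 1 it was 2, with 1 lower. The gene that rose was Daxx, from 36.5 ± 2.53 to 72.8 ± 15.4 CPM (edgeR adjusted p = 0.0104). Its call ended without control 3, without CPN 1 and without both, with an adjusted p from 0.0015 to 0.206 over the alternatives. Atm, the kinase that signals DNA breaks to p53, had no overlap, at 98.7 ± 5.03 CPM in control against 65.8 ± 10.5 CPM, and did not pass (adjusted p = 0.0725). It passed with library totals alone, within a range over the alternatives of 0.0372 to 0.239. Ep300, a histone acetyltransferase that p53 recruits, had 112 ± 14.1 and 76.9 ± 20.4 CPM (adjusted p = 0.134), and passed without both control 2 and CPN 1 (adjusted p = 0.0492). Cdkn2a, whose product ARF blocks MDM2, and the p53 relatives Trp63 and Trp73 had 0 counts in every library. Mdm4, Cdkn2a, Trp63 and Trp73 were named after their values were seen.

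Of 38 other tested p53 targets, 5 rose and 1 fell (13.2% and 2.63%, against 7.62% and 6.39% of all tested genes), and their median log2 fold change was -0.03. The count of higher targets was 9 without control 2 and 3 without CPN 2. The count of lower targets was 3 without control 2, 2 without CPN 3 and 0 without control 3, CPN 1 or CPN 2. Of the 5 that rose, Gadd45a, Plk2 and Eda2r were near 0 in control and passed the filter on low counts only through the CPN libraries, where they are high. The share of 13.2% counts these 3 genes, so its distance from 7.62% is no evidence on the list. Gadd45a, a growth arrest gene induced by DNA damage, had 0, 0.120 and 0.818 CPM in control 1 to 3 and 29.3, 31.3 and 43.7 CPM in CPN 1 to 3, or 6.79 ± 0.706 (SE) as a fitted log2 fold change, at an edgeR adjusted p of 4.82e-05. Its control counts were 0, 1 and 7, so the size of the change is loosely set, and it was 8.98 without control 3. Plk2, a stress-induced kinase, rose from 1.38 ± 0.956 to 62.2 ± 18.8 CPM (adjusted p = 2e-05). Bbc3, encoding the pro-apoptotic protein PUMA, rose 2.78-fold to 121 ± 22.7 CPM (adjusted p = 0.00484). The alternatives gave it 8.78e-07 to 0.126, and the call ended without both control 3 and CPN 1. A further 3 genes, named after their values were seen, completed the calls. Eda2r, a death-domain receptor, rose to 10.7 ± 6.65 CPM from 0.456 ± 0.444 CPM (log2 fold change 4.53), the peptide transporter gene Tap1 rose 2.90-fold, and Fdxr, a mitochondrial ferredoxin reductase, fell 1.85-fold. The log2 fold change of Eda2r was 5.59 without control 2, and its call ended without CPN 2 and with limma-voom. The log2 fold change of Tap1 was 1.54, or 2.14 without control 1, and its call ended without control 3, CPN 2 or CPN 3 and with the replicate block. The call of Fdxr ended without control 1, control 3, CPN 1 or CPN 2. All 3 calls also ended without both control 3 and CPN 1, with adjusted p of 0.125, 0.13 and 0.184 in the same order. Classic targets without a call, also named after their values were seen, included Bax, at 17.0 ± 11.5 CPM in control against 31.6 ± 15.4 CPM (adjusted p = 0.276), and Btg2, at 17.7 ± 7.05 CPM in control against 12.9 ± 7.18 CPM (adjusted p = 0.626). Both overlapped between groups. Of the 38, called genes included, 9 had all CPN values above control and 5 all below, where 32.6% of all tested genes were separated either way. Those without a call were Fas, Rrm2b, Apaf1 and Triap1 above, and Ei24, Siva1, Ddb2 and Abhd4 below.

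**Figure D4:**
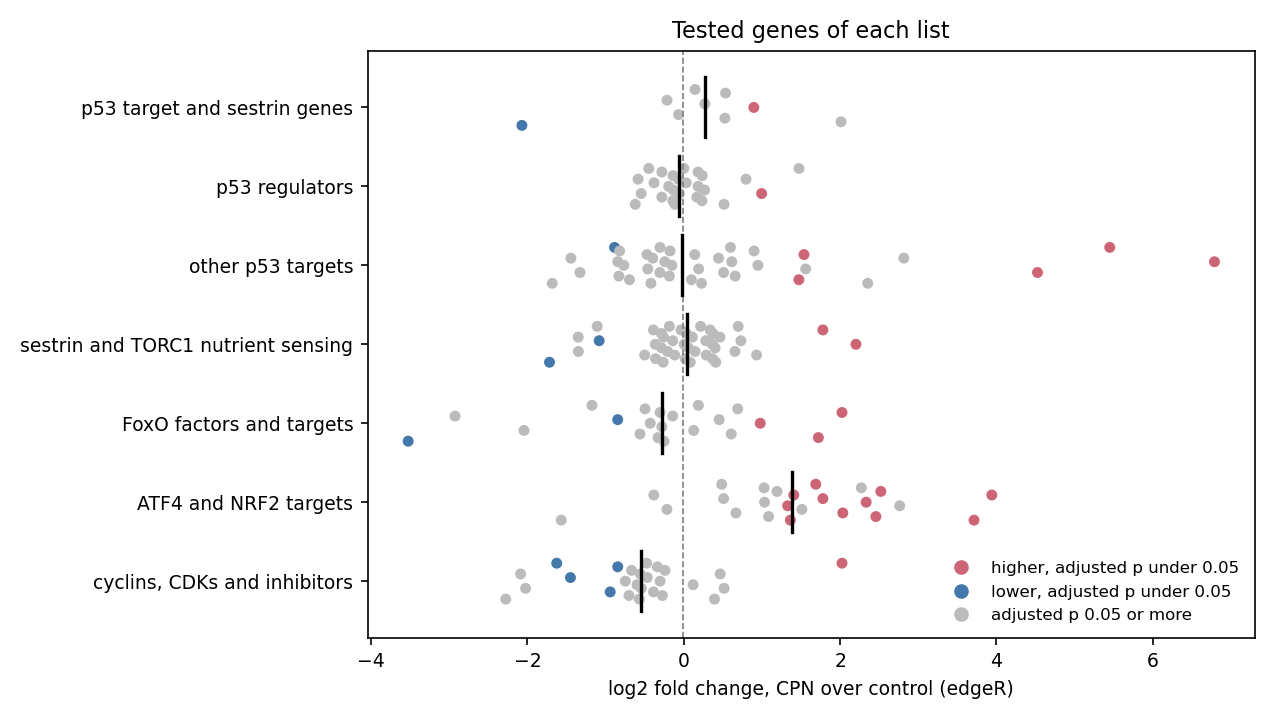
Log2 fold change of CPN over control (horizontal axis) of every tested gene in the 10-gene list and 6 related lists, with 1 point per gene, coloured by edgeR call; the vertical spread within a row only separates points, black bars are list medians and the dashed line is the median of all tested genes. List medians run from -0.55 for the cyclins, CDKs and inhibitors to 1.39 for the ATF4 and NRF2 targets.

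In the list of GATOR, Rag, AMPK, TORC1 and sestrin partner genes, 2 of 41 tested genes were higher and 2 lower (4.88% each, against 7.62% and 6.39% of all tested genes), with a median log2 fold change of 0.04. The pair that rose, Sqstm1 and Srxn1, act with sestrins in the KEAP1 and peroxiredoxin branch and are not parts of the TORC1 nutrient sensing machinery. The count of lower genes was 0 without control 3 and 1 without CPN 1 or CPN 2. Sqstm1, the autophagy receptor p62 that works with sestrins in turning over KEAP1, had 592 ± 388 CPM in control and 2724 ± 377 CPM in CPN, and rose by 2.20 on the log2 scale, or 2.90 without control 2 (edgeR, with all libraries, adjusted p = 0.000838). Srxn1, a sulfiredoxin that restores peroxiredoxins, rose 3.43-fold, from 32.5 ± 9.57 CPM (adjusted p = 0.000594), and is also counted among the ATF4 and NRF2 targets. Prkag2, a regulatory subunit of the energy sensor AMPK, fell 3.29-fold (adjusted p = 0.0113), and its call ended without control 3 and without both control 3 and CPN 1 (range over the alternatives 0.000791 to 0.117). The TORC1 inhibitor gene Deptor, named after its values were seen, fell 2.12-fold, and its call ended without control 3, CPN 1, CPN 2 or both control 3 and CPN 1 (highest adjusted p 0.219). Nprl2, Nprl3 and Depdc5, the GATOR1 subunits that act below sestrins, did not pass, at log2 fold changes of 0.46, -0.12 and -0.39 (adjusted p of 0.571, 0.851 and 0.779, named after their values were seen).

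Among 21 tested FoxO factors and targets, the group in which Sesn1 and Sesn3 are also placed, 3 rose and 2 fell (14.3% and 9.52%, against 7.62% and 6.39% of all tested genes; median log2 fold change -0.28), with 1 lower without control 3 or CPN 2. Txnip, the thioredoxin-binding arrestin, had 325.2, 496.2 and 463.6 CPM in control 1 to 3 and 47.4, 24.9 and 39.2 CPM in CPN 1 to 3, and fell by 3.53 ± 0.261 on the log2 scale (SE), at an edgeR adjusted p of 4.88e-06. Cdkn1b, encoding the inhibitor p27, fell 1.80-fold, from 120 ± 10.5 to 66.8 ± 10.3 CPM (adjusted p = 0.0124), and its call ended without control 3, CPN 2 or both control 3 and CPN 1 (range 0.00127 to 0.144). The antioxidant enzyme genes Cat and Sod2 moved the other way, rising 3.30-fold (adjusted p = 0.000268) and 1.97-fold (adjusted p = 0.00573). The call of Sod2 ended without both control 3 and CPN 1 (range 4.94e-05 to 0.142). Ccnd2, encoding cyclin D2 and named after its values were seen, had a log2 fold change of 2.02, or 2.78 without control 2, and its call ended without control 1, control 3, CPN 1, CPN 3 or both control 3 and CPN 1 (highest adjusted p 0.222). The list thus moved both ways. Foxo1 itself had 15.6 ± 7.08 CPM in control and 13.1 ± 3.75 CPM in CPN (adjusted p = 0.786), and Foxo3 had 15 counts in all and was not tested. Both were named after their values were seen.

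Targets of ATF4 and NRF2, the stress factors known to induce Sesn2, gave 11 higher and none lower of 24 tested by edgeR, where 7.62% of all tested genes were higher, with a median log2 fold change of 1.39. DESeq2 and limma-voom called none lower either. At an unadjusted p under 0.05, edgeR and limma-voom had 0 lower and DESeq2 had 1. The list also holds the factor genes Atf4 and Nfe2l2 themselves. Only Osgin1, Nfe2l2 and Gclc had negative fitted log2 fold changes, of -1.57, -0.38 and -0.21. None of them passed (edgeR adjusted p of 0.256, 0.239 and 0.61), though every CPN value of Osgin1 lay below control. Nqo1 had 19 counts in all and was not tested. These genes were named after their values were seen. The stress-induced factor gene Atf3 rose 13.1-fold to 168 ± 5.86 CPM (edgeR adjusted p = 1.15e-05), the glutathione synthesis gene Gclm rose 5.04-fold (adjusted p = 4.48e-05) and the cystine transporter gene Slc7a11 rose by 3.94 on the log2 scale (adjusted p = 0.000146), or 5.02 without control 2. Control 2, the control library with the most Sesn2, was also the highest control library for nearly all tested genes of this list. Gclm, Txnrd1 and Osgin1 were the only exceptions. Trib3, named after its values were seen, had 1.77, 125.7 and 1.05 CPM in control 1 to 3. Slc7a11 had 13.3, 55.6 and 12.5 CPM in control 1 to 3. Ddit3, encoding CHOP, had 43.3, 299.7 and 59.5 CPM, and Atf4 had 202.2, 694.6 and 176.5 CPM, both named after their values were seen. The exceptions were all highest in control 1. Gclm was lowest in control 2, at 35.5, 23.0 and 24.9 CPM in control 1 to 3. Txnrd1 was also named after its values were seen. Among the members, control 2 was the highest control for Sesn1, Sesn2, Cdkn1a, Mdm2 and Trp53inp1. Without control 2, 20 of these ATF4 and NRF2 targets were higher, and without both control 2 and CPN 1, 18 were.

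The list of cyclins, cyclin-dependent kinases and inhibitors, which also holds E2F, RB and DREAM complex genes and Pcna, gave 4 lower and 1 higher of 26 tested genes (15.4% and 3.85%, against 6.39% and 7.62% of all tested genes). Its median log2 fold change was -0.55. Cdk1, the mitotic kinase, fell 3.08-fold from 170 ± 58.4 to 55.2 ± 6.77 CPM (edgeR adjusted p = 0.00106). The alternatives gave Cdk1 6.04e-09 to 0.0613, the highest without both control 3 and CPN 1. Pcna, the replication clamp to which p21 also binds, fell from 180 ± 42.0 to 93.6 ± 19.1 CPM (adjusted p = 0.0127), and its call ended without control 1, control 3, CPN 1, CPN 2 or both control 3 and CPN 1 (range 0.000392 to 0.176). The gene that rose was Ccnd2, described above. The other fallers were Cdkn1b and, named after its values were seen, the cell cycle transcription factor gene E2f2 (2.73-fold). The call of E2f2 ended with the replicate block, without control 1, control 3, CPN 1 or CPN 3, and without either pair of libraries (highest adjusted p 0.278). Of the inhibitors in this list, Cdkn1b thus fell, and Cdkn1c, Cdkn2a and Cdkn2b had 0 counts in every library. Cdkn2c had 8.64 ± 3.81 CPM in control and 2.12 ± 0.704 CPM in CPN, with no overlap, and did not pass (edgeR adjusted p = 0.0747). Cdkn2d, at 26.3 ± 5.74 and 17.4 ± 5.77 CPM, did not pass either (adjusted p = 0.299). All of these but Cdkn1b were named after their values were seen. Cdk2 and Cdk4, kinases that p21 binds, did not pass (adjusted p of 0.233 and 0.741, named after their values were seen). The count of lower genes in this list was 8 without control 2, 7 without both control 2 and CPN 1, 2 without control 1, CPN 1 or CPN 2, and 1 without control 3. The 1 higher gene lost its edgeR call when control 1, control 3, CPN 1 or CPN 3 was left out, each time with 1 gene higher at an unadjusted p under 0.05. Without both control 3 and CPN 1 edgeR called none lower, with 5 lower at an unadjusted p under 0.05.

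The genes whose log2 CPM followed Mdm2 most closely over the 6 libraries, among 6561 named genes with a mean of at least 20 CPM, were Gyg, the glycogenin gene (Pearson r = 0.998), the lysosomal membrane gene Laptm4a (0.996) and Srxn1 (0.995). Gyg rose, at 21.01 ± 7.95 CPM in control against 91.2 ± 33.5 CPM (edgeR adjusted p = 0.00101). For Sesn1 they were the apolipoprotein gene Apoe (r = 0.994), Cpt2, a mitochondrial fatty acid import enzyme (0.993), and Ilk, a kinase at integrin adhesions (0.992). Apoe fell from 65.8 ± 9.54 to 13.7 ± 3.56 CPM (adjusted p = 0.000147) and Cpt2 from 28.9 ± 1.22 to 14.7 ± 1.71 CPM (adjusted p = 0.0428). The call of Cpt2 held in 6 of 16 alternatives and ended without any 1 of the 6 libraries (highest adjusted p 0.243). Ilk had 128 ± 0.392 and 114 ± 2.50 CPM and did not pass (adjusted p = 0.608), which shows that the correlation reads the order and spacing of the libraries and not the size of the change. All points share the same 6 libraries in 2 groups, so these values are a description.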

How the data were processed

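Messenger RNA of 3 control and 3 CPN samples was read by QuantSeq 3′ sequencing after TRIzol extraction, according to the labels' protocols. The authors deposited raw counts for each gene in a separate table for every sample. The submitters' processing notes name the build mm10 and the tools Bowtie2 and bedtools, while the sources used here give no versions, annotation or use of strand. The test was run with edgeR 4.0.16 in R 4.3.3 (TMM, filterByExpr with a minimum count of 10 and total of 15, quasi-likelihood test, Benjamini-Hochberg over 11092 genes). SE is the log2 fold change divided by the square root of F, and 95% intervals are unadjusted. The code was tested on simulated counts. Over genes of all levels, it called 28 of 91 simulated log2 changes of 1 and 73 of 102 changes of 2. It also called 4 of 10620 unchanged genes. A gene that did not pass may therefore still have changed. The members, lists and tests were chosen with earlier results of these data known. Named by rule were the members, up to 3 genes with the smallest p per list, and the 3 genes closest to each member that passed (log2 CPM, prior count 2). Of the list symbols, 5 were in no entry. Alternatives used DESeq2 1.42.0, limma 3.58.1 and other scalings, filters and samples. Sequences are RefSeq's (GRCm38.p6), matched by symbol for 8 of 10 members.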

Additional observations from a re-analysis of the deposited data

How the results depend on the processing

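Among the members, 128 of the values under alternatives kept their direction and call, 2 lost a call, 4 gained one and 8 changed sign, none of the last in a member that passed. Without 1 library each, Trp53 ran from -0.49 to 0.19 (log2; above 0 without control 1, CPN 1 or CPN 2), Trp53inp1 from -0.39 to 0.14 (above 0 without control 2) and Phlda3 from -0.074 (without CPN 3) to 0.70, and Phlda3 was -0.037 with limma-voom. Library totals alone shifted the median of all genes to -0.13 (log2) and the share of calls that were higher from 54.4% to 43.0%, and gave 1 lower p53 regulator. DESeq2 gave 2 higher members and 2 lower other p53 targets. Limma-voom gave 18 higher ATF4 and NRF2 targets. With no filter there were 2 higher members, 8 higher and 3 lower other p53 targets, 18 higher ATF4 and NRF2 targets and 8 lower cyclins, CDKs and inhibitors. Without both control 3 and CPN 1, 273 genes were higher and 173 lower, 0 members and 0 p53 regulators were higher, 2 other p53 targets were higher and 0 lower, 0 TORC1 genes were lower, 1 FoxO gene was higher and 1 lower, 6 ATF4 and NRF2 targets were higher, and 0 cyclins, CDKs and inhibitors were higher and 0 lower; fewer samples were then tested. Without both control 2 and CPN 1, an alternative chosen after seeing the data, 968 genes were higher and 770 lower, 2 members were higher, 2 p53 regulators were higher and 1 lower, 3 other p53 targets were lower, 18 ATF4 and NRF2 targets were higher and 7 cyclins, CDKs and inhibitors were lower, and Trp53 was at 0.072 and Trp53inp1 at 0.079 (log2). Otherwise the cause of these shifts was not tested.

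Leaving out 1 library at a time gave 525 to 1131 higher and 359 to 823 lower genes, 0 to 2 higher members (0 without control 3, 2 without control 2), 0 to 2 higher p53 regulators, 3 to 9 higher and 0 to 3 lower other p53 targets, 0 to 3 lower TORC1 genes, 1 to 3 lower FoxO genes, 8 to 20 higher ATF4 and NRF2 targets, and 0 to 1 higher and 1 to 8 lower cyclins, CDKs and inhibitors. The member that fell, Sesn1, was called in each. Samples with the same replicate number did not deviate together (r of -0.05, 0.02 and 0.03), so the numbers were not taken as pairs. With the replicate number as a block, 748 genes were higher and 578 lower, and among the members 1 was higher and 1 lower.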
